A study of Mus musculus with 10 samples.

Results

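The 38 genes described here act in mitosis and in the passage from G2 to mitosis, and they are components or regulators of the cyclin and CDK1 engine, the spindle, the kinetochore, the spindle checkpoint and cytokinesis. They were listed by gene symbol with earlier results of these data known, and make up 38 of the 29268 genes in the table of uterine RNA-seq counts. The samples were uterine tissue of 5 HSD17B1TG and 5 WT female mice aged 4 months, with 1 library per mouse. The part of the uterus taken for RNA is not given in the study's methods. All mice were on the FVB/N background. HSD17B1TG mice carry a human *HSD17B1* cDNA, encoding the enzyme that converts estrone to estradiol, in all tissues under the CMV-enhanced chicken beta actin promoter, and come from a line kept heterozygous. Per the study's methods HSD17B1TG mice do not cycle, and WT uteri for histology were taken at random phases of the cycle. No cycle phase is given for the sequenced uteri. The question put to these genes was whether the proliferation program differed between the pre-adenomyotic transgenic uterus and the WT uterus.

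Mitotic genes are switched on late in the cell cycle and silenced in resting cells, so their summed RNA in a tissue is widely read as a measure of cell division. In resting cells the DREAM complex holds many of them off through a short promoter element, the cell cycle genes homology region (CHR). In dividing cells the MuvB core of that complex works with B-MYB and FOXM1 to switch the same genes on, often together with NF-Y bound at CCAAT boxes. In the uterus, estrogen drives division of the luminal and glandular epithelium and progesterone opposes it. In whole tissue, fewer dividing cells and less RNA per dividing cell cannot be told apart.

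The starts of the genes were read from RefSeq promoters of GRCm38.p6, which reach from 250 bases before to 50 bases after each start. Entries were matched for 31 of the 38 genes. For 6 of them the 120 bases directly upstream of the RefSeq start are printed 5′ to 3′ on the strand of the gene. These genes carry the element through which the program is known to be switched, and their values by mouse follow. *Mki67* (2 CHR matches and 0 CCAAT boxes in its 120 bases) and 1 start of *Ect2* (1 and 2) meet the same conditions and are not printed. Capitals mark TTTGAA or TTTAAA (CHR) and CCAAT (NF-Y) on either strand, so that a CHR may read TTCAAA and a CCAAT box ATTGG.
Ccnb1 (chr13:100786487-100786606, minus strand): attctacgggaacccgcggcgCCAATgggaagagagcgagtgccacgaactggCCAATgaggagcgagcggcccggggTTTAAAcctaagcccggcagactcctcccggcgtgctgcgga
Cdk1 (chr10:69352913-69353032, minus strand): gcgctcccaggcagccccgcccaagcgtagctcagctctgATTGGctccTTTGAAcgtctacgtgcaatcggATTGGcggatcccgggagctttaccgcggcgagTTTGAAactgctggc
Cdc20 (chr4:118437344-118437463, minus strand): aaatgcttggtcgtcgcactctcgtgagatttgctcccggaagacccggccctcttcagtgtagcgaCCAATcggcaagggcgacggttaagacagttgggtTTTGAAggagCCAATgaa
Top2a (chr11:99024190-99024309, minus strand): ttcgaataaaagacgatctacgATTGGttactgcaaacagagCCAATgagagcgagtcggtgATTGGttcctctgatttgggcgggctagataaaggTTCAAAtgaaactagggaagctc
Plk1 (chr7:122159315-122159434, plus strand): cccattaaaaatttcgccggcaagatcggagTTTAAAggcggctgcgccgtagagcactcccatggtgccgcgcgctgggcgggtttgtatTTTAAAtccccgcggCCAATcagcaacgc
Cenpa (chr5:30666766-30666885, plus strand): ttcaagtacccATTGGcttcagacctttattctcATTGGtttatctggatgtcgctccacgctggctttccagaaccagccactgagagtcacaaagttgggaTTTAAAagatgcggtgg
*Cdk1* held 2 CHR matches and 2 CCAAT boxes in its 120 bases, *Plk1* 2 and 1, *Cdc20* 1 and 2, *Ccnb1* 1 and 2, *Cenpa* 1 and 2, and *Top2a* 1 and 3. The *Plk1* window lies before a start that was not found in a GENCODE M21 transcript of the gene, as for 11 of the 33 promoters of these genes. The RefSeq start can also differ from the outer end of the gene as listed with the counts. The *Cenpa* and *Ccnb1* windows lie mostly inside the listed genes, whose 5′ ends are at 30666777 and 100786570. Those of *Cdk1* and *Cdc20* lie inside in part. The distance of these windows to the start in use is thus uncertain.

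Over the whole 300-base window, 27 of the 31 matched genes held a CHR match (87.1%, exact 95% binomial interval 70.2 to 96.4), against 30.6% of all 27025 genes in the promoter table. A CCAAT box was present in 24 of 31 (77.4%) against 41.1% of all genes, and both motifs in 23 of 31 (74.2%) against 12.2%. The 4 genes without a CHR match were *Bub1*, *Mad2l1*, *Nuf2* and *Nusap1*. A CHR match beginning within 50 bases of the start was found in 24 of the 31 genes (77.4%) and in 9.54% of all genes. Counting only the bases upstream of the start, 15 of 31 genes (48.4%) held a CHR match against 28.1% of all genes. In the other lists of this report, 34 of 54 other mitosis genes (63.0%), 8 of 26 S phase genes (30.8%) and 2 of 16 genes for CDK inhibitors and G1 cyclins (12.5%) held a CHR match in the whole window. A match of letters is a description of the sequence and not a measured binding site.

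**Figure D1:**
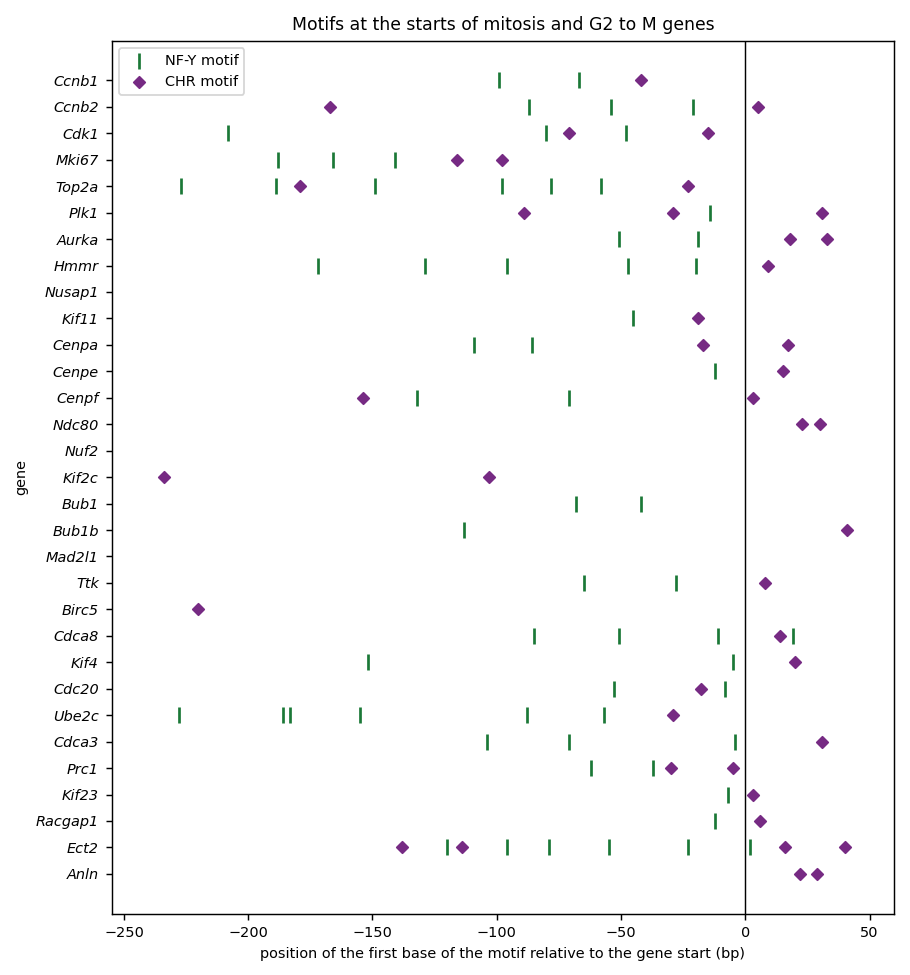
Positions of CHR motifs (diamonds) and NF-Y motifs, the CCAAT boxes (bars), relative to the gene start of the RefSeq promoter in base pairs, for the 31 mitosis and G2 to M genes with a promoter entry. In 24 genes a CHR match begins within 50 bases of the start, and NF-Y motifs lie mostly upstream of it.

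Total counts on genes ranged from 14817228 to 23271988 per mouse. The 38 genes together took 1728 counts in TG1, the fewest, and 61456 in TG3, the most, which was 0.00888% and 0.327% of the counts of those mice. In TG3 each gene had between 283 and 6956 counts. Under 10 counts in at least 1 mouse were seen in 6 genes, and *Cdc25c* alone went down to 3 counts or fewer, with 1 count in TG1 and 1 in TG4. The names TG1 to TG5 and WT1 to WT5 follow the animal numbers, lowest first. The transgene is human and the table lists mouse genes, so it gives no check of the genotype labels here. Markers of uterine epithelium, stroma and smooth muscle were all detected in every mouse.

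Across the 38 genes the same mice stood at the top and at the bottom. TG3 had the highest FPKM (the deposited level, which is scaled for gene length and depth) of the 10 mice in 38 of 38 genes, and in 12.0% of all 16993 genes tested. TG1, TG2, TG4 and TG5 all lay below WT1, WT2, WT3 and WT4 in 38 of 38 genes (7.90% of all genes tested), and WT5 was the lowest WT mouse in 38 of 38 (20.8%). The summed FPKM of the 38 genes was 18.3 in TG1, 30.3 in TG2, 692 in TG3, 40.6 in TG4 and 37.5 in TG5. In the WT mice it was 301, 267, 235, 280 and 53.4 from WT1 to WT5. TG3 thus lay above every WT mouse, the other HSD17B1TG mice lay below every WT mouse, and WT5 lay nearer to those 4 than to the other WT mice. The mean of log2(FPKM + 1) over the 38 genes was 1.42 ± 1.44 in HSD17B1TG and 2.46 ± 0.74 in WT (SD, n = 5 mice per group), a difference of -1.04 that was smaller than the spread between the transgenic mice.

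**Figure D2:**
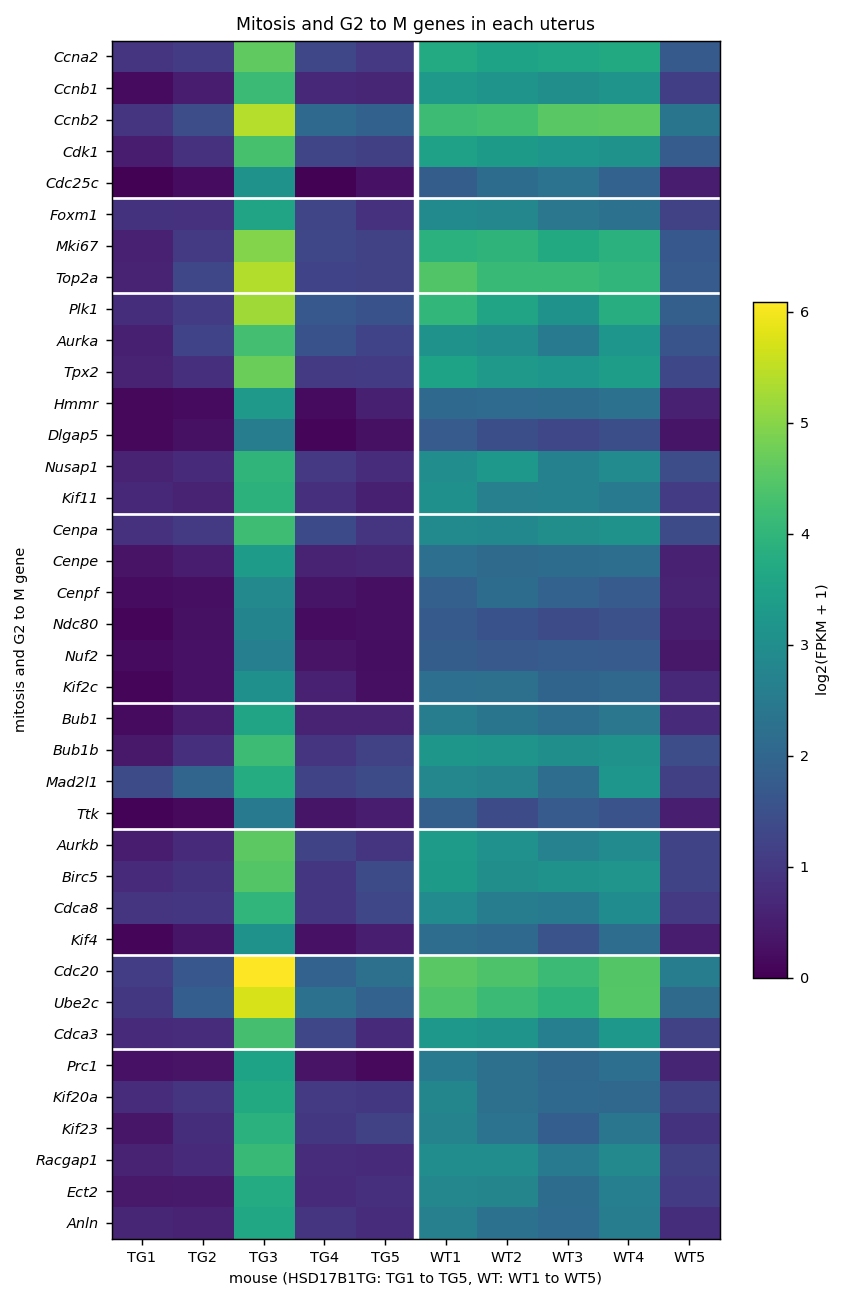
Level of each of the 38 genes as log2(FPKM + 1) in each of the 10 mice, ordered by role, with white lines between roles and between genotypes. TG3 is the brightest column, the 4 other HSD17B1TG mice are dark, and WT5 is the darkest of the WT mice.

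Tested over all 10 mice, none of the 38 genes passed the test between the genotypes. With edgeR's quasi-likelihood test and Benjamini-Hochberg adjustment over 16993 genes, a call needed an adjusted p under 0.05, a change of more than 2-fold and a mean above 1 FPKM in HSD17B1TG or WT. By this rule 0 of the 38 genes were called down, against 2.08% of all genes tested, and 0 were called up, against 2.16%. An unadjusted p under 0.05 was also reached by 0 of the 38, against 26.1% of all genes tested (11.4% with a lower level in HSD17B1TG). DESeq2 called 0 of the 9 to which it gave a p-value, and 923 up and 674 down of all 29268 genes. A count of 0 among 9 genes is close to that share over all genes. The adjusted p-values in edgeR lay between 0.630 and 0.991. The standard error given here (0.674 to 1.27) is the size of the estimate over the square root of the F value of the edgeR test. It was larger than the estimate itself in 38 of 38 genes, which restates the test and is not a further result. All 38 estimates were below 0, with a median log2 fold change of -0.53 (all genes tested, 0.0021). The size of that median depended on the scale, and with the same 10 mice it was -0.998 in limma on log2(FPKM + 1), -1.76 on log2(FPKM + 0.1) and -2.04 in limma's voom with quality weights. An unadjusted p under 0.05 was reached by 0, 8 and 22 of the 38 genes in these fits, all lower in HSD17B1TG, against 11.7% and 16.4% of all genes tested for the latter 2. Of the 38 genes 0 were called in each. Of all 16993 genes tested, these fits called 416, 493 and 1083 up and 228, 320 and 665 down. The groups overlapped in FPKM in all 38 genes, while they did not overlap in 6.69% of all genes tested. For single genes, an exact two-sided permutation of the mice on log2(FPKM + 1), which can reach 0.00794 with 5 mice against 5, gave p between 0.127 and 0.476. Of all genes tested, 24.1% were under 0.05 by that test.

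Leaving out each mouse in turn changed this only for TG3. Without TG3, 36 of the 38 genes were called down in edgeR, against 3.05% of the genes tested in that fit, and the exceptions were *Kif23* and *Mad2l1*. All 38 then had an unadjusted p under 0.05, against 14.3% of genes with such a p and a lower level in HSD17B1TG. The median log2 fold change without TG3 was -3.04, the range -4.57 to -1.39, and the adjusted p-values lay between 0.0135 and 0.0942. In the other 9 fits that left out 1 mouse, 0 of the 38 genes were called and their median lay between -0.80 and -0.23. Those fits called 0.156% to 3.84% of all genes down and 0.219% to 5.12% up, so a count of 0 among 38 genes is close to the share over all genes. TG3 was seen to stand apart in these genes before the value without it was read, so the 36 calls describe the other 9 mice and are not a test of the genotype.

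**Figure D3:**
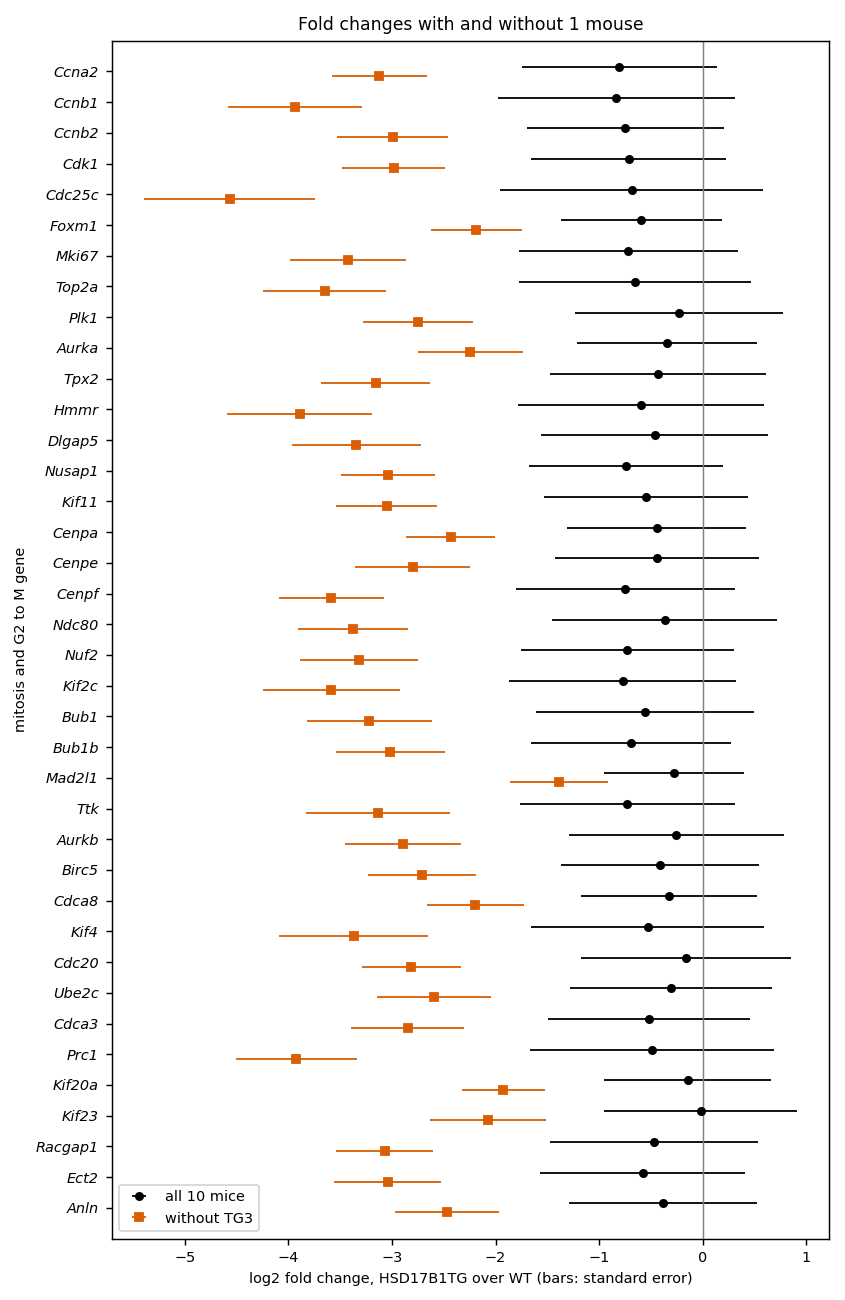
The log2 fold change of each gene, HSD17B1TG over WT, from edgeR with all 10 mice (black circles) and without TG3 (orange squares), with bars of 1 standard error derived from the F value of the test. With all mice the bars of all 38 genes cross 0, and without TG3 the estimates lie between -4.57 and -1.39.

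The cyclins and CDK1 form the engine of mitotic entry. *Ccna2*, encoding cyclin A2, had 0.893, 1.10, 23.4, 1.47 and 1.02 FPKM in TG1 to TG5 and 12.2, 10.5, 11.1, 12.0 and 2.33 FPKM in WT1 to WT5. The groups overlapped, since TG3 was the highest mouse and the other 4 HSD17B1TG mice the lowest (5.57 ± 9.94 FPKM in HSD17B1TG and 9.64 ± 4.14 FPKM in WT, SD, n = 5). The log2 fold change of *Ccna2* was -0.81 (SE 0.942, adjusted p = 0.630 in edgeR), with the smallest p of the 38 genes. *Ccnb1* (ENSMUSG00000041431, chromosome 13 from 100778650 to 100786570), encoding cyclin B1, the main partner of CDK1 in mitosis, had 0.127, 0.409, 16.8, 0.632 and 0.564 FPKM in the transgenic mice and 8.60, 7.96, 7.10, 7.84 and 1.19 in the WT mice. Its log2 fold change of -0.83 (SE 1.14, adjusted p = 0.688 in edgeR) was the lowest of the 38. *Ccnb1* reads can also match 3 pseudogenes of the table with near-identical sequence, so its count is uncertain to that extent. *Ccnb2*, encoding cyclin B2, was the most abundant of this role with 0.911, 1.73, 41.9, 3.20 and 2.69 FPKM in HSD17B1TG and 17.0, 17.8, 22.2, 22.4 and 4.18 FPKM in WT. *Cdk1* (ENSMUSG00000019942, chromosome 10 from 69335146 to 69352938), the mitotic kinase itself, had 0.370, 0.816, 19.1, 1.42 and 1.21 FPKM in HSD17B1TG and 10.1, 8.93, 8.17, 7.59 and 2.39 FPKM in WT. Both genes kept the order in which TG3 was highest, WT5 lay below the other WT mice, and the remaining HSD17B1TG mice lay below WT5. *Cdc25c*, encoding a phosphatase that activates CDK1, had 1, 5, 283, 1 and 7 counts in TG1 to TG5 and 118, 126, 126, 110 and 15 in WT1 to WT5. All 5 genes of this role followed that full order, and with all mice their log2 fold changes lay between -0.83 and -0.69.

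*Foxm1*, the forkhead transcription factor that switches on many of the other genes, had 0.848, 0.829, 10.8, 1.42 and 0.826 FPKM in HSD17B1TG and 6.53, 6.05, 4.33, 3.82 and 1.29 FPKM in WT. TG4 lay slightly above WT5, so *Foxm1* was 1 of the 10 genes without the full order. *Mki67* (ENSMUSG00000031004, chromosome 7 from 135689784 to 135716361), encoding the Ki-67 antigen used to count dividing cells in tissue sections, had 0.480, 1.03, 30.4, 1.44 and 1.28 FPKM in HSD17B1TG and 13.7, 14.5, 12.0, 13.8 and 2.18 FPKM in WT. *Top2a* (ENSMUSG00000020914, chromosome 11 from 98992943 to 99024189), encoding the topoisomerase that untangles sister chromatids, had 0.512, 1.45, 41.0, 1.34 and 1.25 FPKM and 20.5, 16.5, 16.1, 15.2 and 2.35 FPKM. In TG1 the level of *Top2a* was the lowest of the 10 mice and in TG3 the highest. The log2 fold changes were -0.60 for *Foxm1* (SE 0.776, adjusted p = 0.671), -0.72 for *Mki67* (SE 1.06, adjusted p = 0.712) and -0.65 for *Top2a* (SE 1.12, adjusted p = 0.758), all in edgeR.

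Among the mitotic kinases and spindle assembly factors, *Plk1* (ENSMUSG00000030867, chromosome 7 from 122159439 to 122169873), encoding polo-like kinase 1, was the most abundant. Its level was 0.732, 1.10, 36.5, 2.20 and 1.90 FPKM in TG1 to TG5 and 15.2, 10.8, 7.61, 12.97 and 2.60 FPKM in WT1 to WT5. The mean of *Plk1* was 8.49 ± 15.7 FPKM in HSD17B1TG and 9.84 ± 4.93 FPKM in WT (SD, n = 5), and its log2 fold change of -0.23 (SE 1.01, adjusted p = 0.909 in edgeR) was within the spread between mice. *Nusap1*, encoding a protein that bundles spindle microtubules, had the smallest p of this role. It had 0.489, 0.666, 14.7, 1.02 and 0.696 FPKM in HSD17B1TG and 6.94, 8.46, 5.36, 6.66 and 1.71 FPKM in WT, with a log2 fold change of -0.74 (SE 0.936, adjusted p = 0.658 in edgeR). The other genes of the role were *Aurka*, the centrosomal Aurora kinase, *Tpx2*, its activator on the spindle, *Hmmr* and *Dlgap5*, factors of spindle assembly, and *Kif11*, the motor that pushes spindle poles apart. Their log2 fold changes lay between -0.59 for *Hmmr* and -0.34 for *Aurka*. *Hmmr* had the widest gap between group medians, with a WT median 26.9 times the HSD17B1TG median. All 7 genes of this role held the full order of mice.

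The centromere and kinetochore genes were lower in level. *Cenpa* (ENSMUSG00000029177, chromosome 5 from 30666777 to 30674830), encoding the histone H3 variant that marks centromeres, had 0.815, 1.06, 17.3, 1.59 and 0.899 FPKM in HSD17B1TG and 6.55, 6.14, 7.10, 7.65 and 1.64 FPKM in WT. It was the most abundant of its role, with a mean of 4.33 ± 7.24 FPKM in HSD17B1TG and 5.82 ± 2.40 FPKM in WT (SD, n = 5). *Nuf2*, a subunit of the NDC80 complex that attaches microtubules to kinetochores, had 0.135, 0.236, 5.21, 0.254 and 0.172 FPKM and 2.50, 2.26, 2.42, 2.34 and 0.323 FPKM. The 4 HSD17B1TG mice other than TG3 and also WT5 lay under 1 FPKM for *Nuf2*, while the other WT mice and TG3 lay above 2 FPKM. The log2 fold changes of *Cenpa* (-0.44) and *Nuf2* (-0.73) had adjusted p-values of 0.789 and 0.697 in edgeR. *Ndc80*, the partner of *Nuf2*, *Cenpe*, a kinetochore motor, *Cenpf*, a kinetochore protein of G2 and mitosis, and *Kif2c*, a kinesin that shortens microtubules, had log2 fold changes of -0.77 (*Kif2c*) to -0.37 (*Ndc80*). *Cenpe* was the exception to the full order in this role, as TG4 and TG5 lay above WT5.

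The spindle checkpoint holds anaphase until all chromosomes are attached. *Bub1b*, encoding the checkpoint protein BUBR1, had both the smallest p and the highest level of its role, with 0.326, 0.780, 17.1, 0.928 and 1.25 FPKM in HSD17B1TG and 8.31, 7.88, 7.14, 7.72 and 1.69 FPKM in WT. Its log2 fold change was -0.70 (SE 0.965, adjusted p = 0.692 in edgeR). *Bub1* and *Ttk*, the kinases that start the checkpoint signal, had log2 fold changes of -0.56 and -0.73. *Mad2l1*, encoding MAD2, stood apart from the other 37 genes. Its gap between TG3 and the next HSD17B1TG mouse was the smallest, 4.33-fold against a median of 15.8-fold over the 38 genes, and its TG3 level exceeded the highest WT mouse by 1.57-fold, also the smallest of the 38. WT5 was the lowest of all 10 mice for *Mad2l1* and for no other of these genes. *Mad2l1* reads can match a near-identical predicted gene that the table does not list.

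*Birc5*, encoding survivin of the chromosomal passenger complex, had 0.647, 0.862, 21.0, 0.966 and 1.62 FPKM in TG1 to TG5 and 9.0025, 7.04, 7.58, 8.08 and 1.38 FPKM in WT1 to WT5. The log2 fold change of *Birc5* was -0.41 (SE 0.959, adjusted p = 0.823 in edgeR). *Kif4*, a motor that binds chromosome arms, had 0.0584, 0.271, 7.77, 0.225 and 0.431 FPKM and 3.51, 3.21, 1.95, 3.49 and 0.381 FPKM, with a log2 fold change of -0.53 (SE 1.12, adjusted p = 0.805 in edgeR). In both genes TG5 lay just above WT5. *Aurkb*, the kinase of the complex, and *Cdca8*, its subunit borealin, had log2 fold changes of -0.26 and -0.33. *Aurkb* was the 1 gene of this role with the full order of mice.

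The anaphase-promoting complex marks cyclins for destruction. *Cdc20* (ENSMUSG00000006398, chromosome 4 from 118432901 to 118437352), encoding the activator of that complex, was the most abundant of the 38 genes and had 1.15, 2.15, 67.2, 2.76 and 3.78 FPKM in HSD17B1TG and 22.0, 20.1, 16.8, 21.2 and 4.99 FPKM in WT. TG3 exceeded the highest WT mouse by 3.05-fold in *Cdc20*, the widest such gap of the 38. With means of 15.4 ± 29.0 FPKM in HSD17B1TG and 17.0 ± 7.01 FPKM in WT (SD, n = 5), the log2 fold change was -0.16 (SE 1.02, adjusted p = 0.938 in edgeR). *Cdca3*, a regulator of mitotic entry, had the smallest p of this role, with 0.655, 0.722, 18.6, 1.45 and 0.695 FPKM and 8.47, 7.93, 5.19, 8.45 and 1.29 FPKM and a log2 fold change of -0.52 (SE 0.972, adjusted p = 0.778 in edgeR). *Ube2c*, the ubiquitin-conjugating enzyme of the complex, had a log2 fold change of -0.31. TG4 lay above WT5 in *Cdca3* and *Ube2c*.

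The 2 estimates nearest to 0 of the 38, those of *Kif23* and *Kif20a*, belonged to genes of the central spindle and cytokinesis. *Kif23*, encoding a motor of the centralspindlin complex, had 0.299, 0.728, 13.8, 0.997 and 1.30 FPKM in HSD17B1TG and 5.60, 4.00, 2.50, 4.25 and 0.847 FPKM in WT. Its log2 fold change was -0.02 (SE 0.929, adjusted p = 0.991 in edgeR). *Racgap1*, the partner of *Kif23* in centralspindlin, had 0.493, 0.658, 16.6, 0.718 and 0.653 FPKM and 6.98, 6.95, 4.77, 6.25 and 1.21 FPKM. *Ect2*, encoding the exchange factor that activates RhoA at the cleavage site, had 0.339, 0.352, 12.5, 0.645 and 0.799 FPKM and 6.04, 5.82, 3.48, 5.21 and 1.12 FPKM. The log2 fold changes of *Racgap1* and *Ect2* were -0.47 (SE 1.00, adjusted p = 0.807) and -0.58 (SE 0.988, adjusted p = 0.756) in edgeR. *Prc1*, which bundles the midzone microtubules, had the widest gap of the 38 between TG3 and the next HSD17B1TG mouse, 41.3-fold. *Kif20a*, a midzone motor, and *Anln*, the scaffold of the contractile ring, had log2 fold changes of -0.15 and -0.38.

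In 28 of the 38 genes the mice followed the full order in which TG1, TG2, TG4 and TG5 lay below WT5, WT5 below the other WT mice, and TG3 above all. This order was found in 230 of the 16993 genes tested (1.35%), of which 71 belonged to the other cell cycle lists and 131 to none of them. Over the 38 genes, the WT median exceeded the HSD17B1TG median 3.24-fold to 26.9-fold (median 8.26). TG3 exceeded the highest WT mouse 1.57-fold to 3.05-fold (median 2.12), and the lowest of the other WT mice exceeded WT5 2.34-fold to 6.98-fold (median 4.28). TG1 was the lowest of the 10 mice in 32 of 38 genes, against 10.4% of all genes tested.

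The wider cell cycle genes, from lists written with results of these data known, showed which neighbours shared the order. Of 64 other mitosis genes, 0 were called in either direction by edgeR or DESeq2 (which gave no p-value for 23), 0 had an unadjusted p under 0.05 in edgeR, 58 of the estimates were below 0, and the median log2 fold change was -0.44. Their summed FPKM was 759 in TG3, between 137 and 158 in the other HSD17B1TG mice, between 328 and 419 in WT1 to WT4, and 156 in WT5, and TG3 was the highest mouse in 60 of the 64 genes. The smallest p-values of this list belonged to *Mad1l1*, a checkpoint protein (log2 fold change -0.39, adjusted p = 0.314 in edgeR), *Ckap5*, a microtubule polymerase (-0.33, adjusted p = 0.370), and *Hjurp*, the chaperone of CENP-A (0.42, adjusted p = 0.424).

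Of 31 genes of S phase and replication, 0 were called by edgeR or DESeq2 (which gave no p-value for 7), 0 had an unadjusted p under 0.05 in edgeR, and the median log2 fold change was also -0.44. TG3 was the highest mouse in 31 of 31 of them. Their summed FPKM was 641 in TG3, 82.1 to 124 in the other HSD17B1TG mice, 256 to 364 in WT1 to WT4 and 157 in WT5. *Prim1*, a primase subunit, had a log2 fold change of -0.96 (adjusted p = 0.288 in edgeR), *Gins1*, a subunit of the replicative helicase, -0.90 (adjusted p = 0.311), and *Dut*, which removes dUTP, -0.87 (adjusted p = 0.359). The summed FPKM of the 38 genes was 108% of that of the S phase genes in TG3 and 82.8% to 105% in WT1 to WT4. In the other HSD17B1TG mice it was 22.3% to 37.4%, and in WT5 34.1%. By this ratio of sums, mitotic RNA was low relative to S phase RNA in the 5 mice with the lowest levels of both. The S phase sum also holds genes that stayed well detected in those mice. *Pcna*, named after its values were seen, made up 24.3 of 82.1 FPKM in TG1 and 35.2 of 157 FPKM in WT5. The part of this baseline in the ratio was not tested.

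**Figure D4:**
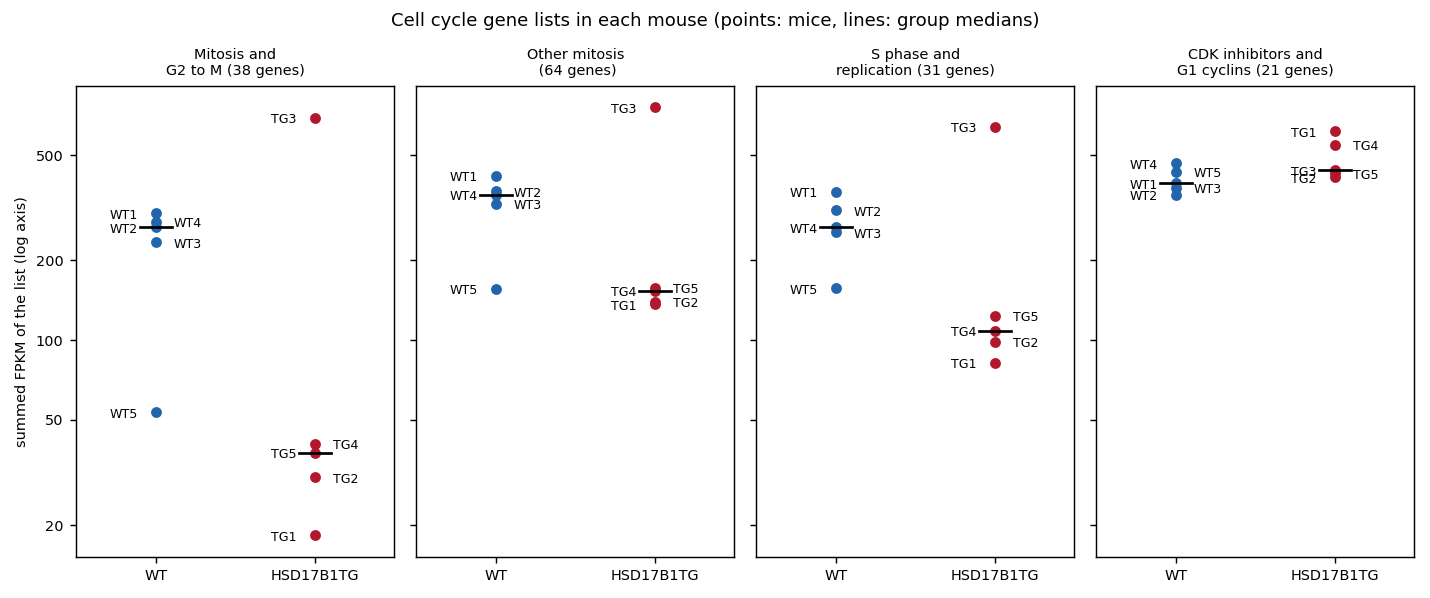
Summed FPKM of 4 gene lists in each mouse on a log axis, with points for mice and lines for group medians (n = 5 mice per group). TG3 is the highest mouse in the first 3 lists, with 692, 759 and 641, and lies among the other mice in the list of CDK inhibitors and G1 cyclins.

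Among the regulators of the program, some followed TG3 and others did not. Of 19 genes for E2F, DREAM and MYB-MuvB proteins, 0 were called by edgeR or DESeq2 (which gave no p-value for 1), 0 had an unadjusted p under 0.05 in edgeR, the median log2 fold change was -0.24, and TG3 was the highest mouse in 10 and beyond Dixon's 95% limit for an outlying value on the high side in 9. *Mybl2*, encoding B-MYB, had 0.568, 0.844, 6.37, 0.750 and 0.971 FPKM in TG1 to TG5 and 4.79, 2.78, 1.45, 2.02 and 1.10 FPKM in WT1 to WT5, and *E2f1* had 1.51, 0.984, 10.7, 1.22 and 0.713 FPKM and 5.00, 4.96, 4.23, 4.11 and 2.43 FPKM. Both were among the 5 of the 19 genes with the full order of mice, and both were named after their values were seen. *Rbbp4*, a histone-binding subunit of the MuvB core, had a log2 fold change of -0.31 (adjusted p = 0.210 in edgeR), the repressor *E2f7* -1.24 (adjusted p = 0.366) and *E2f5* 0.26 (adjusted p = 0.435). Of 20 tested genes for CDK inhibitors and G1 cyclins, 1 was called down and 0 up (2.08% and 2.16% of all genes tested), with a median log2 fold change of 0.18. An unadjusted p under 0.05 was reached by 4 with higher and 2 with lower levels in HSD17B1TG. Of all 16993 genes tested, 2493 had such a p with higher and 1937 with lower levels, so these counts are near the share over all genes. The gene called was *Ccnd2*, encoding cyclin D2, which drives cells from G1 towards S phase. It had 3.14, 3.24, 3.57, 3.85 and 2.59 FPKM in TG1 to TG5 and 6.54, 11.5, 10.8, 3.84 and 8.02 FPKM in WT1 to WT5. TG3 lay among the other transgenic mice in *Ccnd2*, and WT4 was the 1 WT mouse within their range. The log2 fold change of *Ccnd2* was -1.32 (SE 0.270, adjusted p = 0.0274 in edgeR), and the call was lost on leaving out TG2, TG4, TG5, WT2, WT3 or WT5. In those fits its log2 fold change was -1.38 to -1.18 (adjusted p = 0.0578 to 0.0707 in edgeR), and the calls over all genes also fell, from 367 up and 354 down with all mice to between 38 and 83 up and between 27 and 78 down. *Cdk6*, a partner of D-type cyclins, had 5.53 ± 3.07 FPKM in HSD17B1TG and 1.91 ± 0.768 FPKM in WT (SD, n = 5). Its log2 fold change of 1.53 did not pass (adjusted p = 0.0511 in edgeR). *Cdkn1a*, encoding the CDK inhibitor p21, had 32.6, 15.6, 18.8, 34.1 and 18.7 FPKM in HSD17B1TG and 5.35, 3.16, 2.37, 18.8 and 9.78 FPKM in WT, and did not pass either (log2 fold change 1.60, adjusted p = 0.0854 in edgeR). DESeq2 called both *Cdk6* and *Cdkn1a* up.

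Cell type markers were set beside the mitotic genes in each mouse. TG3 had the highest summed level in 0 of 10 marker lists. The summed FPKM of 15 epithelium markers was 2921 in TG3, within the 880 to 4007 of the other HSD17B1TG mice, and 608 to 1934 in WT. WT5 had the lowest epithelium sum of the 10 mice, 608, and the highest sum of 12 stroma markers, 1981. TG3 had the lowest stroma sum, 529, against 574 to 1771 in the other HSD17B1TG mice and 1122 to 1981 in WT. The sum of 10 smooth muscle markers was 1041 in TG3, 492 to 4175 in the other HSD17B1TG mice and 279 to 3424 in WT. In edgeR 2 of the 15 epithelium markers were called up (*Prom1* and *Spint2*), against 2.16% of all genes tested. Of the 12 stroma markers 5 were called down (*Hand2*, *Hoxa10*, *Hoxa11*, *Pdgfra* and *Thy1*), against 2.08%. The 1 epithelium marker with an estimate below 0 was *Foxa2* (log2 fold change -0.23). The 2 stroma markers above 0 were *Lum* (0.51) and *Fbln1* (0.37). An unadjusted p under 0.05 was reached by 10 epithelium markers, all higher in HSD17B1TG, and by 6 stroma markers, all lower. Of all 16993 genes tested, 2493 had such a p with a higher level and 1937 with a lower level in HSD17B1TG. DESeq2 called 5 epithelium markers up, adding *Cdh1*, *Cldn4* and *Cldn7*, and 6 stroma markers down, adding *Vim*. Of the smooth muscle markers 0 were called by edgeR or DESeq2, and 0 had an unadjusted p under 0.05. Relative to the epithelium sum, the summed FPKM of the 38 genes was 23.7% in TG3, 0.935% to 2.08% in the other HSD17B1TG mice, 14.5% to 33.3% in WT1 to WT4 and 8.80% in WT5. Relative to the stroma sum it was 131% in TG3, 1.03% to 6.52% in the other HSD17B1TG mice, 15.4% to 23.8% in WT1 to WT4 and 2.70% in WT5. TG3 thus lay within the range of WT1 to WT4 against epithelium markers and above it against stroma markers, and WT5 lay above the other HSD17B1TG mice against the first and among them against the second. The part of tissue composition in the levels of the mitotic genes was not tested.

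**Figure D5:**
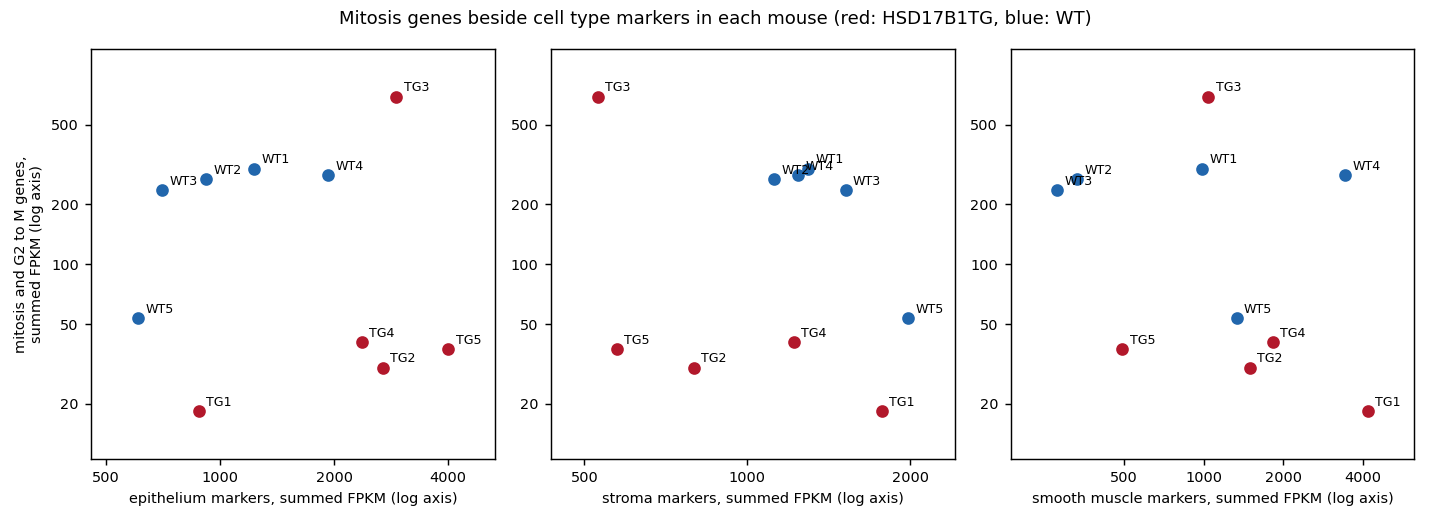
Summed FPKM of the 38 genes (vertical, log axis) against the summed FPKM of epithelium, stroma and smooth muscle markers (horizontal, log axis) in each mouse, HSD17B1TG in red and WT in blue. TG3 lies at 2921 for epithelium, beside HSD17B1TG mice with far lower mitotic levels, and WT5 has the lowest epithelium sum.

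For the cells of blood and vessels, the sum of 10 endothelium markers was 44.5 to 157 FPKM in HSD17B1TG (TG3 48.1) and 85.0 to 189 in WT, with 0 called in edgeR and 2 called down by DESeq2 (*Emcn* and *Esam*). An unadjusted p under 0.05 was reached by 5 endothelium markers with lower and 1 with a higher level in HSD17B1TG (*Cldn5*). The 8 markers of all leucocytes summed to 76.1 to 102 in HSD17B1TG, with TG3 the lowest, and to 59.7 to 128 in WT, with 1 called up in edgeR (*Laptm5*). The other 7 leucocyte markers had estimates below 0, 3 of them at an unadjusted p under 0.05, the median log2 fold change of the list was -0.44, and DESeq2 called *Laptm5* up and *Cd52* and *Ptprc* down. The 8 macrophage markers summed to 174 to 297 in HSD17B1TG, with TG3 again the lowest, and to 143 to 221 in WT, with 1 called up by both edgeR and DESeq2 (*Cd68*). Of 7 neutrophil markers in the table, 4 were tested, 0 were called in edgeR (1 at an unadjusted p under 0.05) and *S100a9* was called up by DESeq2. Their sum was 7.74 to 13.7 in HSD17B1TG (TG3 12.9) and 0.619 to 5.04 in WT. *Retnlg* was listed at 0 in every mouse but TG1. The 10 markers of NK and T cells summed to 2.58 to 7.79 in HSD17B1TG and 10.4 to 93.3 in WT, and 5 of 9 tested were called down by both edgeR and DESeq2 (*Eomes*, *Gzmb*, *Ncr1*, *Nkg7* and *Prf1*). TG3, with 3.37, lay within the transgenic range for NK and T cells. The 7 markers of B and plasma cells summed to 8.33 to 21.7 in HSD17B1TG (TG3 21.7) and 5.33 to 30.4 in WT, with 0 called in edgeR, 1 at an unadjusted p under 0.05, and 1 called up by DESeq2 (*Cd79b*). The estimates of the other 3 tested B and plasma cell markers were below 0, and the median log2 fold change of the list was -0.70. *Ms4a1* was listed at 0 in TG3 to TG5 and WT1 to WT4. The 6 markers of oviduct and ciliated cells summed to 26.0 to 95.4 in HSD17B1TG (TG3 35.8) and 52.4 to 112 in WT, with 0 called by edgeR or DESeq2 and 1 at an unadjusted p under 0.05 in edgeR. The marker genes named in these sentences were chosen after their values were seen.

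Away from the cell cycle lists, TG3 lay with its labelled group in most genes, but less often than WT5 did. Of the 367 genes called up in edgeR without TG3, the log2(FPKM + 1) of TG3 was nearer to the mean of the other HSD17B1TG mice than to the WT mean in 273. Of the 422 genes called down without TG3 that are outside the 38 genes and the lists of mitosis, S phase and E2F or DREAM genes, TG3 was nearer to the other HSD17B1TG mice in 283 (67.1%). With the genes of those lists kept in, it was 283 of 528 (53.6%). WT5 was nearer to the other WT mice in 43 of the 46 genes called up without it and in 59 of the 62 called down.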

How the data were processed

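The authors sequenced mRNA of uterine tissue as read pairs of 150 bp and mapped them to the Ensembl 94 mouse genome (GRCm38) with HISAT2 2.0.5, per the submitters' processing notes. The authors deposited the raw count of each gene per mouse. The authors also deposited FPKM, scaled by gene length and depth, and a signal, the count over a DESeq2 size factor, that was not tested here. How reads were counted, and whether by strand, is not given in the sources used here, so reads of the 12 genes whose exons overlap another gene in GENCODE M21 could be shared with it. The authors' own fold changes, p-values and enrichment tables were not used.

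Mice were grouped by the strain in the labels. Nothing in the labels gives litter, batch or date, so p-values measure the spread between these mice. The test of counts was edgeR 4.0.16 under R 4.3.3 (filterByExpr, TMM, quasi-likelihood test, Benjamini-Hochberg over 16993 genes). Alternatives were DESeq2 1.42.0, which the study used, limma 3.58.1 on voom weights or log2(FPKM), other normalizations, filters and call rules, and each mouse left out. DESeq2 without Cook's cutoff and edgeR with robust dispersion were added after the data were seen. The edgeR, DESeq2 and voom fits were checked on simulated counts. Counts of 3 or fewer cannot be told from absence. Intervals and this limit cover counting error only.

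The 38 genes and all other lists were chosen with earlier results of these data known, so no p is given for a list. Values by mouse are given for the gene with the smallest p and the gene with the highest mean FPKM of each role, for the highest and lowest fold change, and for *Mki67*, *Top2a*, *Ccnb1*, *Cdk1* and *Foxm1*. Of each other cell cycle list, the 3 genes with the smallest p are named. Motifs were searched on both strands of RefSeq promoters. Promoter entries were not used for 7 genes: *Aurkb*, *Ccna2*, *Cdc25c*, *Dlgap5*, *Foxm1*, *Kif20a* and *Tpx2*.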

Additional observations from a re-analysis of the deposited data

Results flagged for a closer look

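The level of TG3 lay further from the other HSD17B1TG mice than Dixon's 95% limit for 5 samples in 38 of the 38 genes. Over all genes tested, TG3 lay beyond it in 3.28% and any HSD17B1TG mouse in 8.37%. Chance places about 1 in 20 groups of samples beyond this limit, and the 38 genes are not independent of each other. For the cyclins and CDK1, the FPKM of TG3 was 23.4 for *Ccna2*, 16.8 for *Ccnb1*, 41.9 for *Ccnb2*, 19.1 for *Cdk1* and 7.75 for *Cdc25c*. For the transcription factor, the proliferation antigen and the topoisomerase, the FPKM of TG3 was 10.8 for *Foxm1*, 30.4 for *Mki67* and 41.0 for *Top2a*. For the mitotic kinases and spindle assembly factors, the FPKM of TG3 was 36.5 for *Plk1*, 18.3 for *Aurka*, 25.4 for *Tpx2*, 8.87 for *Hmmr*, 4.97 for *Dlgap5*, 14.7 for *Nusap1* and 14.2 for *Kif11*. For the centromere and kinetochore, the FPKM of TG3 was 17.3 for *Cenpa*, 9.13 for *Cenpe*, 6.32 for *Cenpf*, 5.71 for *Ndc80*, 5.21 for *Nuf2* and 7.36 for *Kif2c*. For the spindle checkpoint, the FPKM of TG3 was 10.7 for *Bub1*, 17.1 for *Bub1b*, 12.8 for *Mad2l1* and 4.65 for *Ttk*. For the chromosomal passenger complex and its chromokinesin, the FPKM of TG3 was 22.4 for *Aurkb*, 21.0 for *Birc5*, 15.1 for *Cdca8* and 7.77 for *Kif4*. For the anaphase-promoting complex, the FPKM of TG3 was 67.2 for *Cdc20*, 52.0 for *Ube2c* and 18.6 for *Cdca3*. For the central spindle and cytokinesis, the FPKM of TG3 was 10.7 for *Prc1*, 12.1 for *Kif20a*, 13.8 for *Kif23*, 16.6 for *Racgap1*, 12.5 for *Ect2* and 11.5 for *Anln*. The gap of TG3 to the next HSD17B1TG mouse took 0.862 (*Mad2l1*) to 0.987 (*Prc1*) of the range of the group. On log2(FPKM + 1), TG3 also lay beyond the limit in 38 genes.

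Among the WT mice, WT5 lay beyond the same limit on the low side in 11 of the 38 genes (28.9%), while it lay beyond it on either side in 1.85% of all genes tested. Its FPKM was 2.33 for *Ccna2*, 1.19 for *Ccnb1*, 2.18 for *Mki67*, 1.51 for *Tpx2*, 0.467 for *Hmmr*, 1.64 for *Cenpa*, 0.476 for *Cenpe*, 0.323 for *Nuf2*, 0.627 for *Kif2c*, 1.69 for *Bub1b* and 1.38 for *Birc5*. On log2(FPKM + 1), WT5 was beyond the limit in 25 of the 38 genes. No other mouse was beyond the limit in any of the 38 genes on the FPKM scale.

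Both mice also stood apart in the values over all 38 genes. The summed FPKM was 692 in TG3 and 53.4 in WT5, and the mean of log2(FPKM + 1) was 3.98 in TG3 and 1.15 in WT5, each beyond the limit within its own genotype. The cycle phase, litter and processing date of these mice are not given in the labels, and their part in the levels was not tested.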

How the results depend on the processing

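With all 10 mice, 0 of the 38 genes were called under any alternative (other tests, normalizations, filters, call rules) and all 38 estimates stayed below 0. Their median log2 fold change, -0.53 in edgeR, was between -0.61 and -0.51 under the other normalizations, filters, dispersion setting and DESeq2, but -0.998 in limma on log2(FPKM + 1), -1.76 on log2(FPKM + 0.1) and -2.04 with limma's voom with quality weights. DESeq2 gave no p-value for 29 of the 38 because of its Cook's distance cutoff, and called 0 without that cutoff. The count of genes with an unadjusted p under 0.05 was 22 with limma's voom with quality weights (16.4% of all genes tested were that low and lower in HSD17B1TG), 8 with limma on log2(FPKM + 0.1) (11.7%) and 0 in the other alternatives with all mice. The cause was not tested.

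With each mouse left out in turn, the number called down ranged from 0 to 36 for the 38 genes, the number with an unadjusted p under 0.05 from 0 to 38, and the median log2 fold change from -3.04 to -0.23. For other mitosis genes it ranged from 0 to 41 called down, for S phase genes from 0 to 25, for E2F, DREAM and MYB-MuvB regulators from 0 to 4 (*E2f1*, *E2f3*, *E2f8* and *Mybl2*), and the upper value is that without TG3. For CDK inhibitors and G1 cyclins, 0 to 1 were called down and 0 to 1 up, and DESeq2 called 2 up. Estimates changed sign in 5 genes and ranged from -2.75 to 0.068 for *Plk1*, from -2.89 to 0.046 for *Aurkb*, from -2.81 to 0.14 for *Cdc20*, from -1.93 to 0.12 for *Kif20a* and from -2.07 to 0.28 for *Kif23*. With only the bases upstream of the start, the share of matched genes with a CHR match was 48.4%, against 28.1% of all genes. Over the whole window these shares were 87.1% and 30.6%. The share of the matched genes thus depended on the window, and 48.4% lay below the interval of 70.2 to 96.4 for the whole window.

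No paired analysis was possible because the labels tie no mice together across the genotypes, and the numbers 1 to 5 used here only follow the animal numbers within each. Depth limits *Cdc25c* most, with 1 count in TG1 and in TG4.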
